A study of Mus musculus with 6 samples.

Results

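Mitochondrial DNA encodes the core subunits of respiratory complexes III, IV and V, and stretches of that DNA have also been copied into nuclear chromosomes. The 8 genes described here are mt-Cytb of complex III, mt-Co1, mt-Co2 and mt-Co3 of complex IV, mt-Atp6 and mt-Atp8 of complex V, and the nuclear copies Gm28661 and Gm28437. They are 8 of the 20254 genes with values. They were chosen by their deposited values in the hearts taken at 5 months, where values were seen to switch on, so the differences between ages given for them are a description and carry no test. That pattern was present in the 2 nuclear copies only: the 6 mitochondrial genes had values in every heart.

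The hearts came from adult C57BL/6 mice. Trdn-as knockout (KO) mice were represented by 2 hearts at 14 months and 1 heart at 5 months, and wild-type (WT) mice by 2 hearts at 14 months and 1 heart at 5 months. Trdn-as is a long non-coding RNA named as antisense to Trdn, which encodes triadin of the calcium release unit. Replicates 1 and 2 of each genotype are the 14-month hearts and replicate 3 is the 5-month heart, so age cannot be told apart from anything else that the 2 libraries numbered 3 share. The labels state no treatment and, for the knockout allele, no design. They do not say in words that each heart came from its own animal, so p-values measure the spread between these libraries.

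Complex III (cytochrome bc1) passes electrons to cytochrome c and pumps protons, and mt-Cytb encodes its cytochrome b. Complex IV (cytochrome c oxidase) passes the electrons to oxygen, and mt-Co1, mt-Co2 and mt-Co3 encode its core. Complex V (ATP synthase) uses the proton gradient to make ATP: mt-Atp6 encodes subunit a, which lies beside the rotating ring of c subunits, and mt-Atp8 encodes the small subunit A6L. Mammalian mitochondria transcribe these genes as long RNAs that are cut at tRNAs, and mt-Atp8 and mt-Atp6 stay together on a single mature RNA. The heart, which depends on oxidative phosphorylation, is rich in these transcripts.

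Gm28661 and Gm28437 are annotated as unprocessed pseudogenes on the minus strand of chromosome 1, at chr1:24614885-24615565 and chr1:24613189-24613971 (mm10, with GENCODE M21 annotation). Gm28661 was identical to the first 681 bases of mt-Co2 (chrM:7013-7696), and Gm28437 to the first 783 bases of mt-Co3 (chrM:8607-9390). The neighbouring Gm10925 (chr1:24613974-24614651) was identical to the first 678 bases of mt-Atp6 (chrM:7927-8607). Their 3′ ends are shown because these are the only places where the annotated copies and genes differ. Capitals mark bases of the mitochondrial gene that lie past the annotated end of the copy.
mt-Co2: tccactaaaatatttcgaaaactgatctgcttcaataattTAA
Gm28661: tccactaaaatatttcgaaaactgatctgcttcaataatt
mt-Co3: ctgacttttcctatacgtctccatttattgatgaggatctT
Gm28437: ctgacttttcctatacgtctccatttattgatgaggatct
mt-Atp6: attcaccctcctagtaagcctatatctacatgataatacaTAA
Gm10925: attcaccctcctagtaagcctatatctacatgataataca

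The copy of mt-Co1, Gm29216 (chr1:24615706-24616197), is shorter than its gene and differs from it near its own start. Set without gaps against mt-Co1 (chrM:5328-6872), it had 6 substitutions, T1056A, C1057T, A1059G, A1060G, C1062A and A1066T, with positions counted from the first base of mt-Co1 and the mt-Co1 base written first. The 479 bases after the last of these were identical. The first 40 bases of Gm29216 and the matching bases of mt-Co1 are shown with the substituted bases in capitals.
mt-Co1: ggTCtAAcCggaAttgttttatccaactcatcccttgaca
Gm29216: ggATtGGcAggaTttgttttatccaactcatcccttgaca

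Together 7 annotated copies spanned 4663 bases of chromosome 1 (chr1:24611535-24616197). The first 5 copies, counted from Gm29216, started at the same distances from each other as their matches did in mitochondrial DNA, and the last 2 were displaced by 1 base. Of these 7 copies, 5 had a row with values. No copy is annotated opposite mt-Atp8 (chrM:7766-7969), although the order of the block places its match between Gm28661 and Gm10925. mt-Atp8 is printed whole because, of the 2 mitochondrial complex V genes, only it shares few of its bases with other annotated genes. Capitals mark the 43 bases, 21.1% of the gene, that also belong to mt-Atp6.
mt-Atp8: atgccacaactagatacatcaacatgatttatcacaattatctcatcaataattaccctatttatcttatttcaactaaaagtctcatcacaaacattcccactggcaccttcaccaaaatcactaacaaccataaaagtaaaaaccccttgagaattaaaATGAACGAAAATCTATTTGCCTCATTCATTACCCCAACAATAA

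**Figure D1:**
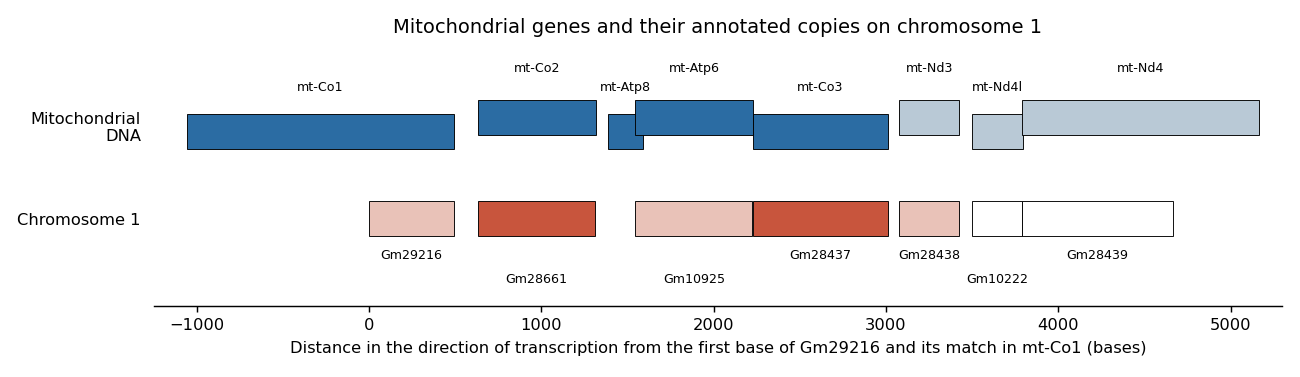
Positions of the mitochondrial genes (upper row, dark blue for the genes described here, grey-blue for complex I) and of their annotated chromosome 1 copies (lower row, red for Gm28661 and Gm28437, pale for other copies with values, white for copies with no row), in bases in the direction of transcription from the start of Gm29216 and its match. The copies line up with the genes, at starts of 0, 632, 1546, 2226 and 3078 bases for the first 5.

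Reads from stretches that are identical in gene and copy cannot be assigned by sequence. Of all stretches of 31 bases, 100% in mt-Co2, 99.9% in mt-Co3 and 99.5% in mt-Atp6 also occurred in another annotated gene. The share was 63.9% in mt-Co1, 7.47% in mt-Atp8, where it came from mt-Atp6, and 6.55% in mt-Cytb. The levels of mt-Co1, mt-Co2, mt-Co3 and mt-Atp6 apart from their copies are therefore uncertain, and the sum of gene and copy is given beside each. mt-Cytb and mt-Atp8 are nearly free of this limit as far as annotated genes go. Stretches outside the annotation were not compared.

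The deposited values are a normalized signal per gene with no physical unit. Large values are written here in kU (1e3 units of that signal) or MU (1e6 units). Totals were 19.8 to 21.6 MU in KO hearts and 19.9 to 23.5 MU in WT hearts. A value of 1 read was guessed from the most common low value of each library. In multiples of 1e6, it would give 19.0 to 23.0 reads in KO hearts and 19.1 to 22.6 reads in WT hearts. Few low values were whole multiples of it, so these depths are rough. The 8 genes held 29.5 to 32.1% of the signal in KO hearts and 29.1 to 30.1% in WT hearts. Trdn-as itself was not analysed here. Trdn, which it is named after, was lower in KO hearts at both ages, at 3429, 3460 and 5606 against 5702, 5600 and 9104 in WT hearts. Its KO minus WT log2 difference of -0.71 did not pass the test over all genes (limma adjusted p = 0.261). All 10 cardiomyocyte markers were above 0 in every heart, with a summed signal of 619 to 724 kU in KO hearts and 657 to 1214 kU in WT hearts. The 7 adipocyte markers, of which Lep was at 0 in some hearts, summed to 0.488 to 2.17 kU in KO hearts and 0.476 to 0.805 kU in WT hearts. The 6 erythroid markers summed to 2.74 to 19.4 kU in KO hearts and 6.79 to 67.0 kU in WT hearts. In RNA from whole hearts, fewer cells of a type and less RNA per cell cannot be told apart.

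Gm28661, the mt-Co2 copy, was close to 0 in the older hearts and among the highest values of the table in the younger ones. In KO hearts it was listed at 0 and at 18.4 at 14 months, and at 368384 at 5 months. In WT hearts it was listed at 0 in both 14-month hearts and at 533913 at 5 months. The 2 ages did not overlap, and the 2 genotypes did. Lack of overlap between these ages was common, at 50.7% of the 13823 genes tested, and 33.7% of genes were called between ages (limma, adjusted p under 0.05). At 5 months Gm28661 ranked 9th of all genes in the KO heart and 7th in the WT heart.

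Gm28437, the mt-Co3 copy, followed the same course at a lower level. In KO hearts it was listed at 0 in both 14-month hearts and at 56028 at 5 months. In WT hearts it was listed at 78.1 and at 0 at 14 months and at 76138 at 5 months. Again the ages did not overlap and the genotypes did. At 5 months it ranked 28th in the KO heart and 31st in the WT heart. At 14 months each copy was above 0 in 1 heart only. An exact 0 in such a table can be a failed estimate, so no mean or fold is given for either copy.

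The other rows of the same chromosome 1 block did not share this course. Gm29216, the mt-Co1 copy, stood at 412 and 410 kU in the KO hearts at 14 months and at 131 kU at 5 months. It stood at 440 and 379 kU in the WT hearts at 14 months and at 317 kU at 5 months. It was thus high in every heart, and lower at 5 months in both genotypes. Gm10925, identical to mt-Atp6, was listed at 33.0 in 1 KO heart at 14 months and at 0 in the other 5 hearts. Gm28438, the copy of the complex I gene mt-Nd3, was 5889 and 5039 in the KO hearts at 14 months and 830 at 5 months, against 34.1, 0 and 789 in the WT hearts.

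**Figure D2:**
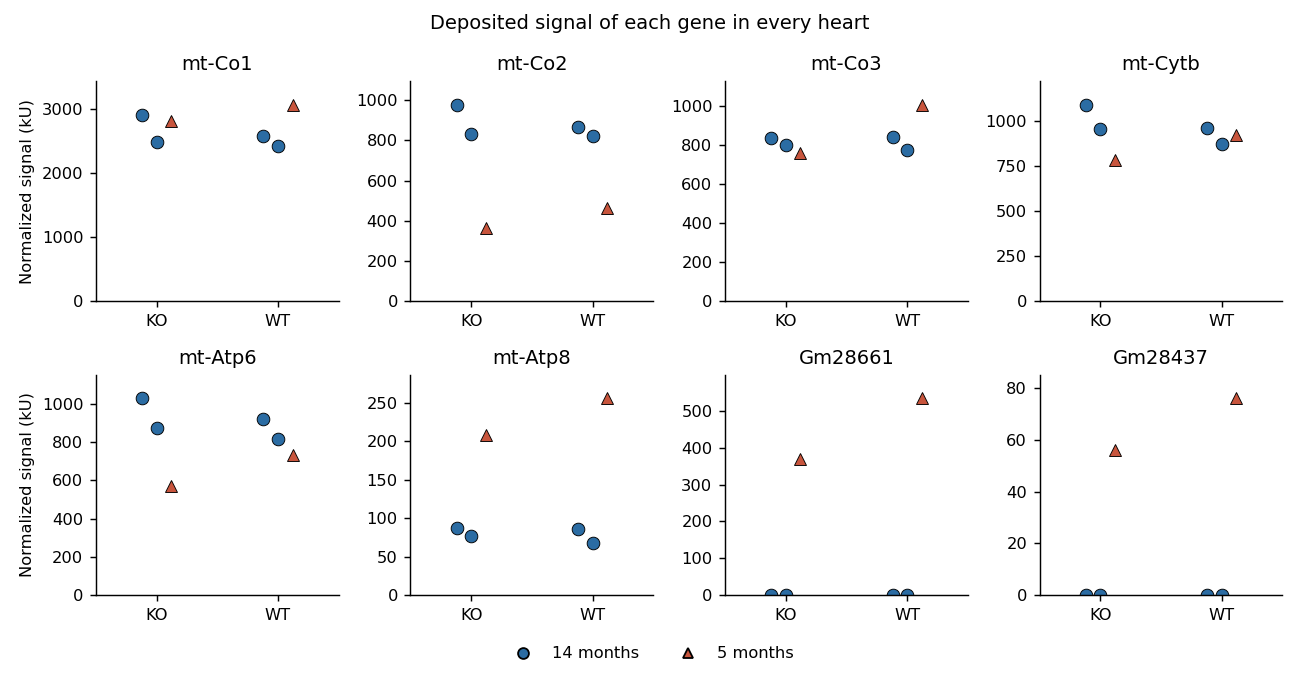
Deposited signal in kU (vertical axes, each with its own scale from 0) of the 8 genes in each heart, with KO left and WT right, blue circles for 14 months and red triangles for 5 months. Gm28661 and Gm28437 lie at or near 0 in all 14-month hearts, mt-Co2 is lower in both 5-month hearts (365 and 466 kU), and mt-Atp8 is higher in both (207 and 256 kU).

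Among the complex IV genes, mt-Co1, the subunit that holds the oxygen-reducing centre, had the highest signal of the whole table. It was 2911 and 2495 kU in the KO hearts at 14 months and 2814 kU at 5 months, against 2590 and 2432 kU in the WT hearts at 14 months and 3073 kU at 5 months. The 5-month heart lay between the 14-month hearts in KO and above them in WT, and the genotypes overlapped. The log2 difference, 5 minus 14 months, was 0.18.

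mt-Co2, the subunit that takes electrons from cytochrome c, was 977 and 833 kU in the KO hearts at 14 months and 365 kU at 5 months. In WT hearts it was 866 and 823 kU at 14 months and 466 kU at 5 months. Both 5-month hearts lay below all 14-month hearts, and the genotypes overlapped. The log2 difference, 5 minus 14 months, was -1.08.

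mt-Co3, the remaining core subunit, was 838 and 802 kU in the KO hearts at 14 months and 761 kU at 5 months. In WT hearts it was 839 and 776 kU at 14 months and 1006 kU at 5 months. The KO heart at 5 months had the lowest and the WT heart at 5 months the highest of these 6 values. The log2 difference, 5 minus 14 months, was 0.11.

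Adding each copy to its gene changed the picture of the ages most for mt-Co2. mt-Co2 with Gm28661 summed to 977 and 833 kU in the KO hearts at 14 months and 733 kU at 5 months, and to 866, 823 and 999.9 kU in the WT hearts in the same order. The ages overlapped in this sum, with a log2 difference, 5 minus 14 months, of -0.03. Gm28661 held 50.2% of the sum in the KO heart at 5 months and 53.4% in the WT heart at 5 months, against at most 0.00221% in any 14-month heart. The sum was lowest in the KO heart and highest in the WT heart at 5 months, so the small log2 difference joins opposite directions. It was split almost evenly between the 2 rows at 5 months and held by mt-Co2 at 14 months. Whether libraries of both ages were quantified against the same set of transcripts is not given in the sources used here, which limits what the values of Gm28661 and Gm28437 mean between ages.

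mt-Co3 with Gm28437 summed to 838 and 802 kU in the KO hearts at 14 months and 817 kU at 5 months, against 839, 776 and 1082 kU in the WT hearts. Gm28437 held 6.86% of the sum in the KO heart and 7.03% in the WT heart at 5 months, and at most 0.00931% at 14 months. The log2 difference of the sum, 5 minus 14 months, was 0.21. Here the sum widened the difference between ages that mt-Co3 alone showed.

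mt-Co1 with Gm29216 summed to 3323 and 2904 kU in the KO hearts at 14 months and 2945 kU at 5 months, against 3030, 2811 and 3390 kU in the WT hearts. The share of Gm29216 was 12.4 and 14.1% in the KO hearts at 14 months and 4.46% at 5 months. In WT hearts it was 14.5 and 13.5% at 14 months and 9.34% at 5 months. The log2 difference of the sum, 5 minus 14 months, was 0.07. Copy shares therefore moved in opposite directions along the block: up at 5 months for Gm28661 and Gm28437, down for Gm29216.

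**Figure D3:**
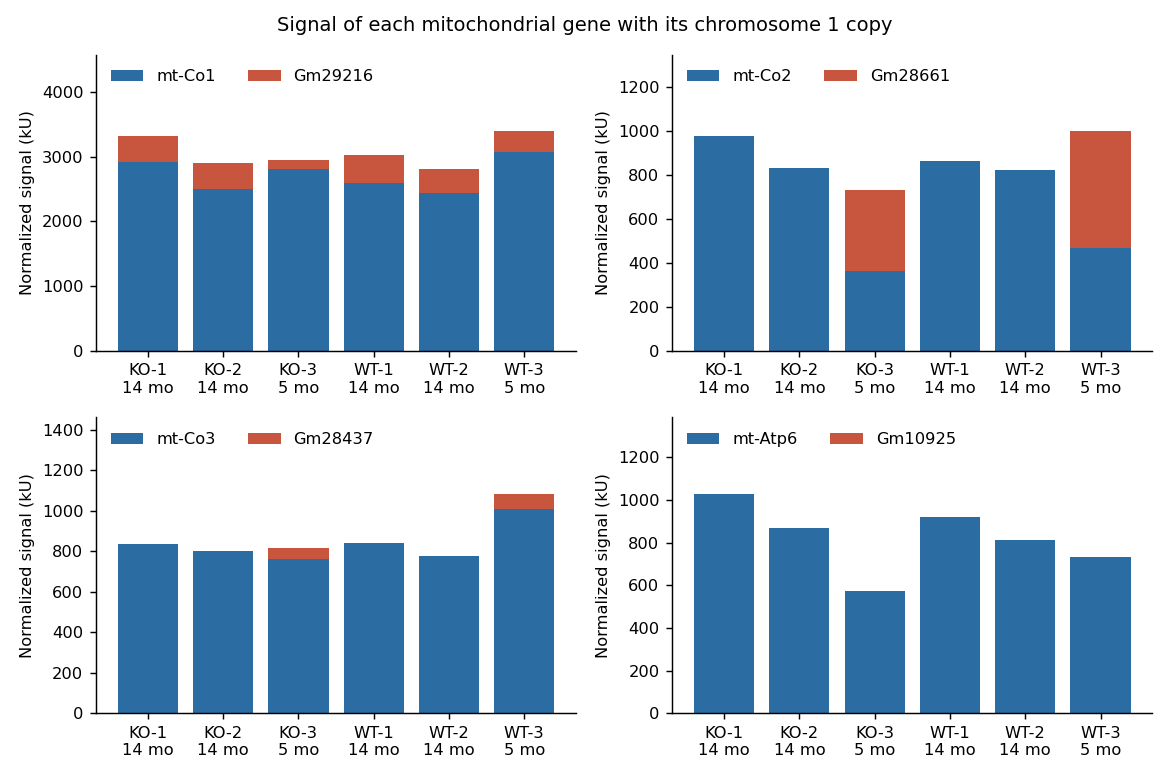
Stacked signal in kU (vertical axes from 0) of each mitochondrial gene (blue) and its chromosome 1 copy (red) in the 6 hearts, KO left of WT, with the age in months under each name. Gm28661 makes up 50.2 and 53.4% of the bar in the 5-month KO and WT hearts and is not visible at 14 months, while Gm29216 is visible in every heart.

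mt-Cytb of complex III was 1090 and 958 kU in the KO hearts at 14 months and 783 kU at 5 months, against 960, 871 and 924 kU in the WT hearts. The 5-month heart was lowest in KO and in the middle in WT, and the log2 difference, 5 minus 14 months, was -0.18. It shares few bases with other annotated genes, so no sum was made for it.

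In complex V the 2 overlapping genes went in opposite directions. mt-Atp6 was 1028 and 871 kU in the KO hearts at 14 months and 572 kU at 5 months, against 921, 814 and 732 kU in the WT hearts. mt-Atp8 was 87.6 and 76.6 kU in the KO hearts at 14 months and 207 kU at 5 months, against 85.4, 67.1 and 256 kU in the WT hearts. Both 5-month hearts lay below all 14-month hearts for mt-Atp6 and above all of them for mt-Atp8. The log2 differences, 5 minus 14 months, were -0.48 for mt-Atp6 and 1.55 for mt-Atp8.

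Because mt-Atp8 and mt-Atp6 are carried by a single RNA, their signal per base of gene was set side by side. The ratio of mt-Atp8 to mt-Atp6 per base was 0.285 and 0.294 in the KO hearts at 14 months and 1.21 at 5 months, against 0.309, 0.275 and 1.16 in the WT hearts. The other pair on a single RNA, mt-Nd4l and mt-Nd4 of complex I, had a ratio of 0.561 and 0.512 in the KO hearts at 14 months and 1.03 at 5 months, against 0.533, 0.521 and 0.804 in the WT hearts. In both pairs the shorter gene stood higher relative to the longer one at 5 months, in the values as deposited. mt-Nd4l and mt-Nd4 share long stretches with copies that have no row with values, Gm10222 and Gm28439. Their ratio apart from these copies is therefore uncertain.

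Transcript length moved with age across the whole table as well. Of the nuclear protein-coding genes with a longest transcript shorter than 500 bases, 17 of 26 were called higher at 5 months and 3 lower, with a median log2 difference of 1.10 (5 minus 14 months). The median was 0.75 over 453 genes of 500 to 1000 bases, 0.30 over 2049 genes of 1000 to 2000 bases, -0.02 over 5425 genes of 2000 to 4000 bases and -0.18 over 5422 longer genes. In all, 16% of the 13823 genes tested were called higher and 17.7% lower at 5 months (limma, adjusted p under 0.05). mt-Atp8, of 204 bases, lay above the median of its length class, and mt-Co1, mt-Co2, mt-Co3, mt-Cytb and mt-Atp6 lay below theirs. The part of length in the values of these genes was not tested.

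**Figure D4:**
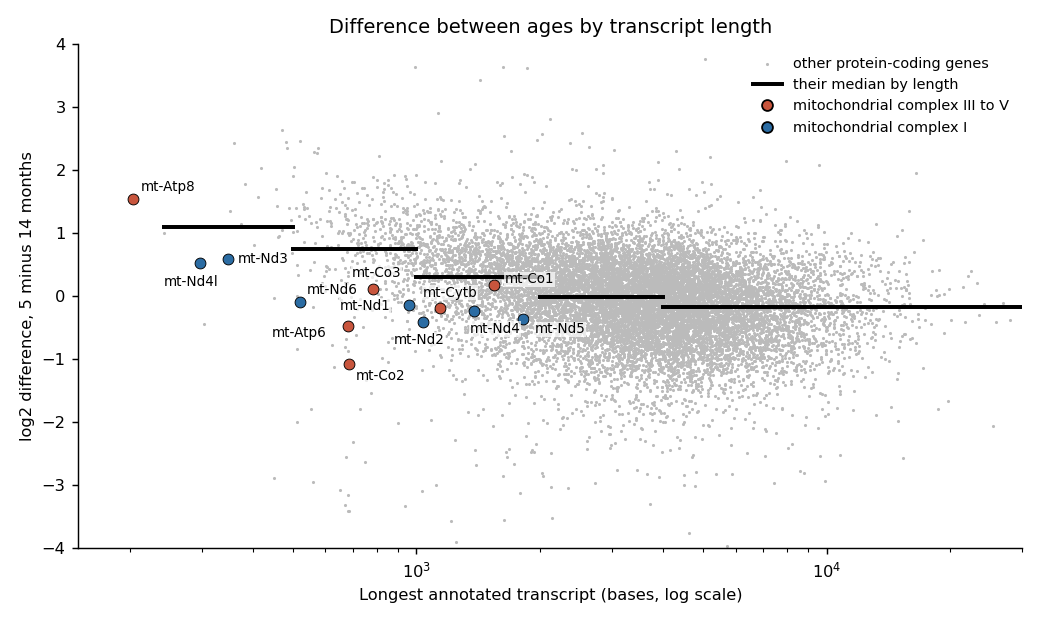
log2 difference, 5 minus 14 months (vertical axis), against the longest annotated transcript in bases (horizontal log axis) for 13375 nuclear protein-coding genes (grey, 21 of them outside the plotted range), with medians by length class (black bars), complex III to V genes in red and mitochondrial complex I genes in blue. Of the mitochondrial genes as deposited, without their copies, mt-Atp8 lies highest at 1.55 and mt-Co2 lowest at -1.08. The sum of mt-Co2 with Gm28661, which is not plotted, had a value of -0.03.

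Levels were compared between genes per base of gene, with each copy added to its gene. Averaged over the 6 hearts, mt-Co1 with Gm29216 had 1985 units of signal per base and was above all others in 6 of 6 hearts. mt-Co2 with Gm28661 had 1275, mt-Atp6 with Gm10925 had 1209 and mt-Co3 with Gm28437 had 1096 units per base. These neighbours were not separated: the first was above the second in 3 of 6 hearts, and the second above the third in 4 of 6. The mt-Co3 sum was above mt-Cytb, at 814 units per base, in 6 of 6 hearts. mt-Atp8 came last at 637 units per base, below mt-Cytb in the 4 hearts at 14 months and above it in the 2 hearts at 5 months.

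Whether loss of Trdn-as changed these genes was tested on log2(value + 1) with limma, with age as a covariate. All 8 genes passed the filter of a value of at least 10 in at least 3 libraries, each nuclear copy through both 5-month hearts and 1 heart at 14 months. None of the 6 mitochondrial genes was called between KO and WT hearts, with 0 of 6 also at unadjusted p under 0.05. The background was 0% of 13823 genes called and 841 genes at unadjusted p under 0.05. The 2 copies were not called either, but their fits rest on exact 0 values at 14 months and cannot decide the question. Leaving out the KO or the WT heart at 5 months gave 5 called genes, and leaving out WT replicate 2 gave 1, none of them a member.

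The 6 mitochondrial genes were close to equal in both genotypes. mt-Co1 averaged 2740 ± 218 kU in KO hearts and 2699 ± 334 kU in WT hearts (SD, n = 3 each), with a log2 difference of 0.03 (95% interval -0.32 to 0.37, limma adjusted p = 0.963). mt-Co3 averaged 800.3 ± 38.8 kU in KO hearts and 874 ± 119 kU in WT hearts (SD, n = 3 each), with a log2 difference of -0.12 (95% interval -0.46 to 0.23, limma adjusted p = 0.829). This was the largest KO minus WT difference of the 6. The log2 differences were -0.05 for mt-Co2, 0.03 for mt-Cytb, -0.03 for mt-Atp6 and -0.02 for mt-Atp8. The signs of mt-Co2, mt-Atp6, mt-Atp8 and of several sums changed under other scalings of the libraries, with values up to 0.19. Over the 6 genes the 95% intervals reached at most from -0.46 to 0.38. Differences inside those bounds are not excluded. The bounds are not a limit of detection, since Trdn at -0.71 was not called either (limma adjusted p = 0.261).

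Sums of gene and copy gave the same picture. The KO minus WT log2 difference was -0.01 for mt-Co1 with Gm29216, -0.09 for mt-Co2 with Gm28661, -0.12 for mt-Co3 with Gm28437 and -0.03 for mt-Atp6 with Gm10925. The limma adjusted p ran between 0.826 and 0.990, with 0% of 13819 rows called. All 8 genes together summed to 6.93, 6.03 and 5.93 MU in KO hearts and 6.26, 5.78 and 7.07 MU in WT hearts. The log2 difference of these totals was -0.02, with p = 0.9 in a two-sided exact permutation test over 20 relabellings, which can reach 0.1 at the least. Keeping each age gave p = 1 over 12 relabellings (exact permutation, smallest possible 0.167).

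KO and WT values overlapped for all 6 mitochondrial genes. Only 5.77% of the 13823 genes had no overlap, so overlap was the usual case and sets these genes apart in nothing. For the nuclear copies, overlap follows from how they were chosen, low at 14 months and high at 5 months in both genotypes. For the nuclear copies the fitted KO minus WT differences rest on exact 0 values at 14 months and are not given. At 5 months, where both copies had signal, the KO value was below the WT value for each, with 1 heart per genotype.

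**Figure D5:**
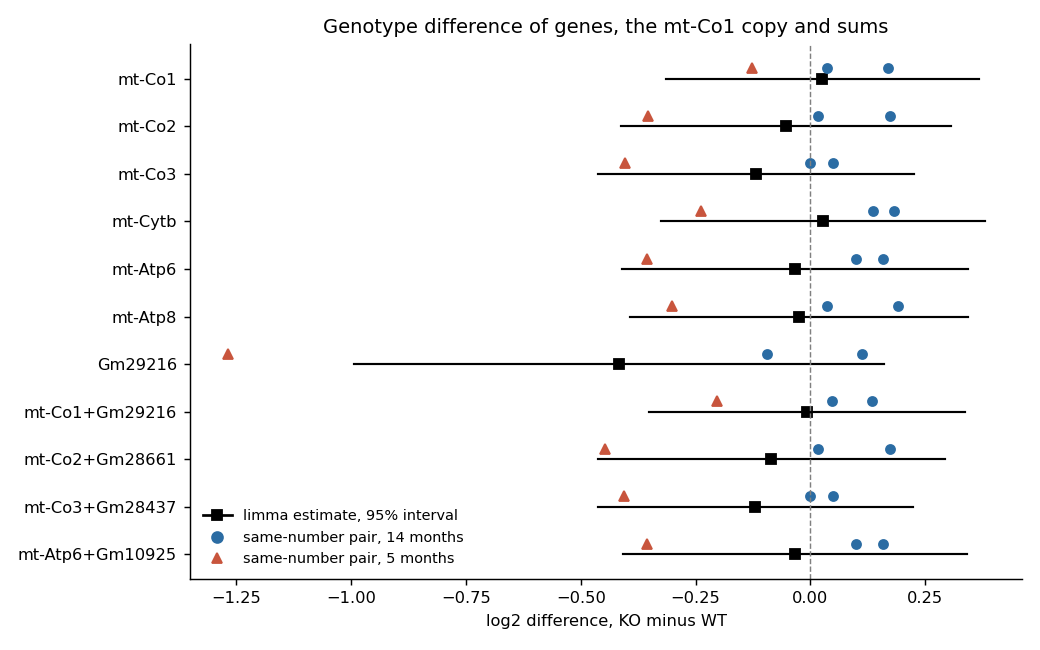
KO minus WT log2 difference (horizontal axis) of the 6 mitochondrial genes of complexes III to V, the mt-Co1 copy and sums of gene and copy: black squares with bars are limma estimates with 95% intervals, blue circles are differences between KO and WT hearts of the same replicate number at 14 months, and red triangles those at 5 months. All black bars shown cross 0, and the red triangle of each row lies left of its blue circles.

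The difference between genotypes was then compared between ages. The KO minus WT log2 difference at 5 months minus that at 14 months was -0.23 for mt-Co1, -0.45 for mt-Co2, -0.43 for mt-Co3, -0.40 for mt-Cytb, -0.48 for mt-Atp6 and -0.41 for mt-Atp8. None of these passed (limma adjusted p 0.148 to 0.489), and 2.08% of 13823 genes did. Those were 287 genes, against 18 without WT replicate 1 and 14 without WT replicate 2. At unadjusted p under 0.05 there were 3 of the 6 mitochondrial members, mt-Co2, mt-Co3 and mt-Atp6, as there were 3211 of all 13823 genes. For the sums the values were -0.29 with Gm29216, -0.54 with Gm28661, -0.43 with Gm28437 and -0.48 with Gm10925, with limma adjusted p between 0.128 and 0.359 and 2.07% of all rows called. The model had 2 residual degrees of freedom, and the median over all genes was -0.05. After libraries were scaled to equal totals that median was 0.24 and mt-Co1 stood at 0.06. Under quantile normalization mt-Co2, mt-Cytb and mt-Atp8 were also above 0.

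Gm29216, the mt-Co1 copy, was the only tested row of the block to pass this test. It was 410 to 412 kU in KO hearts and 379 to 440 kU in WT hearts at 14 months, and 131 kU in the KO heart and 317 kU in the WT heart at 5 months. The difference was -1.28 on the log2 scale (SE 0.16, limma adjusted p = 0.0293). Without WT replicate 1 the adjusted p was 0.0721, and without WT replicate 2 it was 0.0967. Under quantile normalization it was 0.105, and with no filter on low values 0.126. The summed cardiomyocyte markers differed in the same hearts, at 724 kU in the KO heart and 1214 kU in the WT heart at 5 months. Markers of other cell types moved with them: the same interaction value was below 0 for 9 of 10 cardiomyocyte markers (median -0.68), 7 of 7 fibroblast (-0.49), 5 of 6 smooth muscle and pericyte (-1.14), 6 of 6 tested adipocyte (-2.68), 6 of 6 erythroid (-1.32), 6 of 8 macrophage (-0.51) and 5 of 7 endothelial markers (-0.23). Of these, 2 cardiomyocyte, 1 fibroblast and 1 adipocyte marker were called. With equal library totals the median over all genes was 0.24, and 5 of 7 endothelial markers were above 0, with 1 called higher. Most markers of each other list stayed below 0. Under quantile normalization no marker of any of these lists was called. The part of these cell types in the differences was not tested.

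The mitochondrially encoded genes of complex I, most of which share the same precursor RNA, were set beside the members. The KO minus WT log2 difference over these 7 genes had a median of 0.06 and ranged between -0.38 and 0.23, with 0 called. Between ages, mt-Nd3 (0.58, limma adjusted p = 0.0157) and mt-Nd4l (0.53, limma adjusted p = 0.0390) were higher at 5 months, and the other 5, mt-Nd1, mt-Nd2, mt-Nd4, mt-Nd5 and mt-Nd6, had values of -0.09 to -0.41 that did not pass. With quantile normalization neither of the 2 passed, and with equal library totals 3 of the other 5 were called lower. mt-Nd3 and mt-Nd4l are, with mt-Atp8, the shortest mitochondrial genes of the plot by transcript length. Of the stretches compared between annotated genes, 98.1% in mt-Nd3, 98.9% in mt-Nd4l and 62.8% in mt-Nd4 also occurred in another gene. The age differences of these genes apart from their copies are therefore uncertain. For mt-Nd3 with Gm28438 the log2 difference of the sum, 5 minus 14 months, was 0.53. The copies of mt-Nd4l and mt-Nd4, Gm10222 and Gm28439, have no row with values, so no sum could be made.

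The nuclear subunits that join the members in complexes III, IV and V were counted next. The complex V counts here and below include Atpif1 and Atp5s, which are associated factors rather than structural subunits. None of the genes counted was called between genotypes. The KO minus WT value was below 0 for 9 of 9 complex III, 15 of 17 complex IV and 16 of 17 tested complex V subunits, with median log2 differences of -0.20, -0.23 and -0.24 against -0.02 over all genes. After scaling to equal totals these counts were the same, with medians of -0.14, -0.18 and -0.19 against 0.03 over all genes, and under the other scalings they differed by at most 1 gene. Most of this difference came from the single 5-month heart of each genotype. The medians there were -0.50 for complex III, -0.52 for complex IV and -0.61 for complex V. In 14-month hearts they were -0.01, -0.05 and -0.06, with 6 of 9, 14 of 17 and 13 of 17 below 0. Over all genes tested the medians were -0.06 at 5 months and -0.005 at 14 months. These within-age medians are at the deposited scale and were not computed under other scalings. At that scale the 5-month libraries totalled 19.8 MU in KO and 23.5 MU in WT, and the part of library scale was not tested. The members' own median over both ages was -0.03. Genes below 2000 bases had medians of -0.13 to -0.25 between genotypes, and the part of length here was not tested.

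Between ages most of these nuclear subunits were higher at 5 months, where 16% of all genes tested were called higher and 17.7% lower. Short genes were also often higher, with 265 of 453 genes of 500 to 1000 bases called higher and a median log2 difference of 0.75, and the part of length in the subunit counts was not tested. In complex III, 7 of 9 were called higher and 1 lower, with a median log2 difference, 5 minus 14 months, of 1.05. Uqcrh, the hinge protein, averaged 3256 at 14 months and 11887 at 5 months (log2 1.85, limma adjusted p = 0.000158). Cyc1, cytochrome c1, fell at 5 months (-0.59, limma adjusted p = 0.0141). Uqcrc2, a core subunit, was also higher (0.48, limma adjusted p = 0.0258), and Uqcrc1 had a value of 0.14 that did not pass. Cycs, the carrier cytochrome c, was higher at 5 months (1.37, limma adjusted p = 0.000344).

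In complex IV, 14 of 17 nuclear subunits were called higher at 5 months and 0 lower, with a median of 1.15, beside the same 16 and 17.7% of all genes and the same rise of short genes. Cox7a1 and Cox8b, the muscle forms of their subunits, and Cox6c had log2 differences of 2.34, 2.43 and 2.32. Cox4i1, the most used form of subunit 4, averaged 10491 at 14 months and 29182 at 5 months (1.44, limma adjusted p = 0.000796). Cox6a2, the muscle form of subunit 6a and the most abundant of the list, had a value of 0.32 that did not pass. In complex V, 14 of 17 tested were called higher and 1 lower, with a median of 1.00. Atp5e and Atp5k, both small subunits, had log2 differences of 2.30 and 2.28, and Atp5b, the catalytic beta subunit, of 1.03. Atp5a1, the alpha subunit, had 0.18 and did not pass. Atp5g2, which encodes the ring subunit c, fell at 5 months (-1.33, limma adjusted p = 0.00257).

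Assembly and expression factors were counted in the same way. Of 20 complex IV assembly factors, 11 were called higher and 1 lower at 5 months, with a median log2 difference of 0.54. Of 6 complex III assembly factors 3 were called higher, and of 3 complex V assembly factors 1. Of 30 tested factors of mitochondrial transcription, replication and RNA processing, 7 were higher and 3 lower, with a median of 0.19. Over all genes 16% were higher and 17.7% lower, so only the total called was near that of all genes (33.7%). With equal library totals 4 were higher and 3 lower (median 0.13), and with equal totals outside mitochondrial genes and copies 4 and 4 (median 0.02). With quantile normalization 8 were higher and 4 lower (median 0.22). Esrra, a nuclear receptor that drives oxidative metabolism genes, was called higher of 7 biogenesis regulators (0.63, limma adjusted p = 0.00791), and no other was called. With equal totals outside mitochondrial genes and copies, 1 of the 7 was called higher and 2 lower. None of these lists had a gene called between KO and WT hearts.

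The interaction called 0 of 9 nuclear subunits in complex III, 3 of 17 in complex IV and 3 of 17 in complex V, against 2.08% of all genes. The KO minus WT difference was lower at 5 than at 14 months for Cox5a, Cox6a1 and Cox6a2 of complex IV, for Atp5a1, Atp5d and Atp5g3 of complex V, and for Lyrm7, a complex III assembly factor. Atp5g3, another gene of the ring subunit, had the smallest p among them, with a difference of -0.90 (limma adjusted p = 0.0293). It was 7680 and 7713 in KO hearts and 7389 and 7278 in WT hearts at 14 months, and 11892 in the KO heart and 21182 in the WT heart at 5 months. After scaling to equal totals none of the subunits of complexes III, IV and V nor of the complex III assembly factors was called, and with equal totals outside mitochondrial genes and copies 2 complex V subunits were.

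The genes most like the 2 copies in course were far lower in signal. By root mean square difference of centred log2 values over the 6 hearts, the genes nearest to Gm28661 were Gm14288 (5.10), Ifi202b (5.27), Gm9797 (5.51), Gm6565 (5.56) and Gm2260 (5.63). The same 5 were nearest to Gm28437, led by Ifi202b at 3.95. Ifi202b was 0, 0 and 147 in the KO hearts and 0.886, 0 and 170 in the WT hearts, with the 5-month heart last. With a limit of 100 chosen after the values were seen, 129 genes were at or above it in both 5-month hearts and below it in all 14-month hearts, and 180 showed the opposite. Other nuclear copies with shared stretches had low values in every heart. Gm13340, which shares part of mt-Co1, was 79.8 and 71.2 in KO hearts at 14 months and 144 at 5 months, against 73.3, 89.2 and 161 in WT hearts, so that both 5-month hearts were above all 14-month hearts. Gm13341, which shares part of mt-Co2, was 27.1 and 28.4 in KO hearts at 14 months and 16.2 at 5 months, and the WT heart at 5 months, at 18.9, was likewise below both WT hearts at 14 months.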

How the data were processed

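Total RNA of 6 hearts was sequenced on Illumina libraries made from 1 ug of RNA, per the labels' protocols. Per the submitters' processing notes, Salmon 1.5.2 and mm10 were used; how the values were normalized is not given in the sources used here. What the authors deposited is a signal per gene, normalized across libraries, and the values are not whole numbers. Only 6.10 to 9.29% of low values lay within 0.01 of a whole multiple of the value guessed for 1 read. Reads were therefore not recovered and no count test was run. Of 20254 gene identifiers 20146 matched GENCODE M21 (GRCm38, the build of mm10), which gave symbols, positions and sequences, and 108 broken lines were left out. No 2 libraries were near-identical.

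Genes with a value of at least 10 in at least 3 libraries were tested on log2(value + 1) with limma 3.58.1 (R 4.3.3, trend and robust), Benjamini-Hochberg adjusted over all genes, at a threshold of 0.05. The genotype test had age as a covariate, and a second model tested whether the genotype difference varied with age. Alternatives were other pseudocounts, filters and scalings, a replicate block, 14-month hearts alone and each heart left out in turn. The copies were added to their genes before the log in a further fit. Log2 differences of low values are understated by the pseudocount of 1. The fits were tested on simulated data. Gene and copy were compared with Biopython 1.88 and by shared stretches of 31 bases. The members and the gene lists were chosen with earlier results of these data known. Named genes were the members, their sums, other mitochondrial and block rows, Trdn, per list the 2 most abundant members and up to 3 that passed by smallest p, and the 5 nearest patterns; Cyc1, Atp5g2, Cox5a, Cox6a1, Atp5d, Lyrm7, Gm13340 and Gm13341 were named after their values were seen. Hearts of the same replicate number deviated together from their genotype means (correlations 0.390, 0.383 and 0.617). The number carries the age per the labels and those means hold both ages, so these values cannot separate pairing from age. Within 14-month hearts alone the value was 0.0147, so the numbers were not shown to pair the samples beyond age. The fit with the number as a block was an alternative.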

Additional observations from a re-analysis of the deposited data

Results flagged for a closer look

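Gm29216, the chromosome 1 copy of mt-Co1, stood out because its KO minus WT difference was not the same at both ages. At 14 months the genotypes overlapped, and at 5 months it was 131 kU (1e3 units of signal) in the KO heart and 317 kU in the WT heart. The genotype difference at 5 months minus that at 14 months was -1.28 on the log2 scale (limma adjusted p = 0.0293). It rests on 1 heart per genotype at 5 months. mt-Co1 itself, whose reads can be assigned to Gm29216 over the shared bases, had an interaction of -0.23 (limma adjusted p = 0.489), and their sum -0.29 (limma adjusted p = 0.359).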

How the results depend on the processing

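Between KO and WT hearts, the count of 0 genes called held under every other setting run on all 6 hearts, the replicate block included (0 called), and under the fit of 14-month hearts alone. In the genotype tests the replicate block changed no call. Added to the test of the genotype difference between ages after seeing the data, it left 1 residual degree of freedom and gave 359 genes called, and Gm29216 passed (limma adjusted p = 0.0104) and no member did. It was not run for the ages, which the numbers carry. Leaving out 1 heart at a time gave 0 to 5 genes called, also with gene and copy summed, with 5 without KO or WT replicate 3 and 1 without WT replicate 2. The members passed the genotype test under none of these, but signs near 0 changed. With equal library totals the KO minus WT log2 value was 0.018 for mt-Atp6, 0.027 for mt-Atp8, 0.044 for mt-Co1 with Gm29216, 0.018 for mt-Atp6 with Gm10925 and 0.036 for the 8 genes summed. With equal totals outside mitochondrial genes and copies it was 0.044 for mt-Co2, 0.065 for mt-Atp6, 0.073 for mt-Atp8, 0.090, 0.013 and 0.065 for the sums of mt-Co1, mt-Co2 and mt-Atp6 with their copies, and 0.083 for the 8 genes summed. With quantile normalization it was 0.015 for mt-Atp6 and 0.19 for mt-Atp8. In 14-month hearts only it was 0.10 for mt-Co2, 0.024 for mt-Co3, 0.13 for mt-Atp6, 0.11 for mt-Atp8 and 0.0094 for Gm29216, 0.090, 0.10, 0.023 and 0.13 for the sums of mt-Co1, mt-Co2, mt-Co3 and mt-Atp6 with their copies, and 0.10 for the 8 genes summed. Leaving out 1 heart at a time, the values ran between -0.060 and 0.10 for mt-Co1, -0.16 and 0.10 for mt-Co2, -0.19 and 0.024 for mt-Co3, -0.065 and 0.16 for mt-Cytb, -0.15 and 0.13 for mt-Atp6, -0.16 and 0.11 for mt-Atp8, and -0.60 and 0.0094 for Gm29216. For the sums they ran between -0.091 and 0.090 (mt-Co1), -0.20 and 0.10 (mt-Co2), -0.19 and 0.023 (mt-Co3), and -0.15 and 0.13 (mt-Atp6), and for the 8 genes summed between -0.086 and 0.062. In these fits a genotype left with 1 heart at an age is assumed to vary like the others.

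The count of genes whose genotype difference varied with age depended on the setting. It was 287 (122 higher, 165 lower), against 4 with no filter, 12 with quantile normalization, 764 (668 higher, 96 lower) with equal library totals and 623 (506 higher, 117 lower) with equal totals outside mitochondrial genes and copies. The median over all genes was 0.24 and 0.19 in the last 2 settings, against -0.05. Without 1 of the 14-month hearts, an alternative chosen after seeing the data, the count was 14 to 247. mt-Co1 was 0.063 with equal library totals and 0.015 with equal totals outside mitochondrial genes and copies, and with quantile normalization mt-Co2 was 0.077, mt-Cytb 0.12 and mt-Atp8 0.29. Gm29216 lost its call with no filter (-1.28, limma adjusted p = 0.126), with quantile normalization (-0.43, 0.105) and without WT replicate 1 or 2, and ran between -1.39 and -1.17 without 1 heart. Gm28661 without KO replicate 1 and Gm28437 without WT replicate 2 crossed the threshold where the 14-month values left almost no spread, and these fits are void. The cause of these changes was not tested. The number of genes called between ages stayed within 1.5 times of 4663, at 3249 to 4678. With equal totals outside mitochondrial genes and copies it split into 1368 higher and 3252 lower at 5 months, against 2216 and 2447, and the median over all genes was -0.19. Values under about 3 reads cannot be told from 0, and the value of 1 read is itself a guess from the most common low value.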
